A study of Mus musculus with 10 samples.

Results

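The regions described here are 100 bp windows of the deposited H3K4me1 density table that lay away from the regions of the other density tables. A row was kept when it was on chromosomes 1 to 19 or X and more than 500 bp from every row of the H3K4me2 and H3K4me3 tables. These 21036 rows, called distal H3K4me1 regions here, made up 86.6% of the 24286 H3K4me1 rows on those chromosomes. The name refers only to this distance, and position relative to genes or promoters was not examined. Of the distal regions, 2359 lay over 500 to 1000 bp from the nearest H3K4me2 or H3K4me3 row. The 3 tables held 85618 rows in all. The choice used coordinates only and no read values. A distal region was called clustered when another H3K4me1 row lay within 1000 bp and solitary otherwise, which gave 2960 clustered and 18076 solitary regions.

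Dnmt3a2 was measured by ChIP-seq with an antibody to the FLAG tag in Dnmt TKO embryonic stem cells of the J1 mouse line at passages 7 to 10. All cells shared the TKO background and carried 1 of 3 Dnmt3a2 constructs, named WT, WWD and R in the labels, which list 2 samples per construct, one numbered 1 and one named bulk. Dnmt TKO is the usual name of cells that lack Dnmt1, Dnmt3a and Dnmt3b. The labels do not say what WWD and R change or how the constructs were expressed. Each table held 1 Dnmt3a2 column per construct, whose name did not show which of these samples it contained, so no comparison below has a replicate or a test. Library totals were 24015095 reads for WT, 17259400 for WWD and 25254320 for R. Input DNA was not analysed here, and each value includes background reads.

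Dnmt3a2 is a short isoform of Dnmt3a, an enzyme that places new DNA methylation, and it is the main form of Dnmt3a in embryonic stem cells. Its ADD domain binds the tail of histone H3 when lysine 4 is unmethylated, and according to the title of the series a histone-recognition domain of Dnmt3a was engineered. The mark H3K4me1 is typical of enhancers and of the flanks of active promoters, whereas H3K4me3 is concentrated at promoters and H3K4me2 occurs at both. The listed samples include no H3K4me1 ChIP, so whether the distal regions carried this mark in these cells was not checked.

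Distal H3K4me1 regions were spread widely. The median distance to the next H3K4me1 row was 10704 bp, and the median distance to the nearest H3K4me2 or H3K4me3 row was 7766 bp. An H3K4me2 row was nearer than an H3K4me3 row for 12398 of them (58.9%). Among clustered regions the median distance to the next H3K4me1 row was 505 bp and the smallest was 163 bp. No long arrays were present, since 2604 clustered regions were in runs of 2 rows, 321 in runs of 3 and 35 in runs of 4. The share that was clustered, 14.1%, was close to the 14.2% found among the 3250 H3K4me1 rows that adjoined an H3K4me2 or H3K4me3 row.

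Most distal regions held no Dnmt3a2 read in a given construct, and WWD had reads at more of them than WT or R. At least 1 read was present at 4891 regions in WT, or 23.3% (95% exact Clopper-Pearson interval 22.7 to 23.8). In WWD there were 8426 such regions, or 40.1% (39.4 to 40.7), although this column stood for the fewest reads. In R there were 3961, or 18.8% (18.3 to 19.4). These intervals cover counting error over regions only, and not variation between cultures. Mean signal, in reads per region per 10000000 library reads, was 0.488 for WT, 0.868 for WWD and 0.427 for R. WWD was thus 1.78-fold above WT and 2.03-fold above R, and R was at 0.874 times WT. Over the 20 chromosomes the ratio of WWD to WT was 1.80 ± 0.403 (SD, n = 20 chromosomes), with WWD higher on 18 of them. The ratio of R to WT was 0.891 ± 0.0943 (SD, n = 20 chromosomes), with R lower on 18. Chromosomes of 1 library are not replicates of a construct. The comparisons of WWD with WT and of R with WT share the WT column.

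The distribution of read numbers over regions differed between constructs, in libraries of unequal depth. In WWD the count of regions decreased steadily, with 2151 regions at 1 read, 1505 at 2, 1239 at 3 and 805 at 5. In R there were 851 regions at 1 read, 384 at 2, 354 at 3 and then 431 at 5, so regions with 5 reads outnumbered those with 2. WT lay between, with 942, 616, 631 and 525 regions at 1, 2, 3 and 5 reads. These are read numbers, and a read stood for 0.416 per 10000000 library reads for WT, 0.579 for WWD and 0.396 for R. The average over regions with a read was 5.04 reads for WT, 3.74 for WWD and 5.72 for R, but on the scale per 10000000 the averages were close, at 2.10, 2.17 and 2.27. At equal levels WWD had the most regions: at least 2 per 10000000 was reached at 10.1% of distal regions for WT, 16.8% for WWD and 7.41% for R, and at least 4 at 2.20%, 5.84% and 1.98%. These levels were chosen after seeing the data. Libraries were amplified with 18 PCR cycles and the labels name no molecular identifiers, so reads of 1 fragment cannot be told apart from reads of several fragments.

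**Figure D1:**
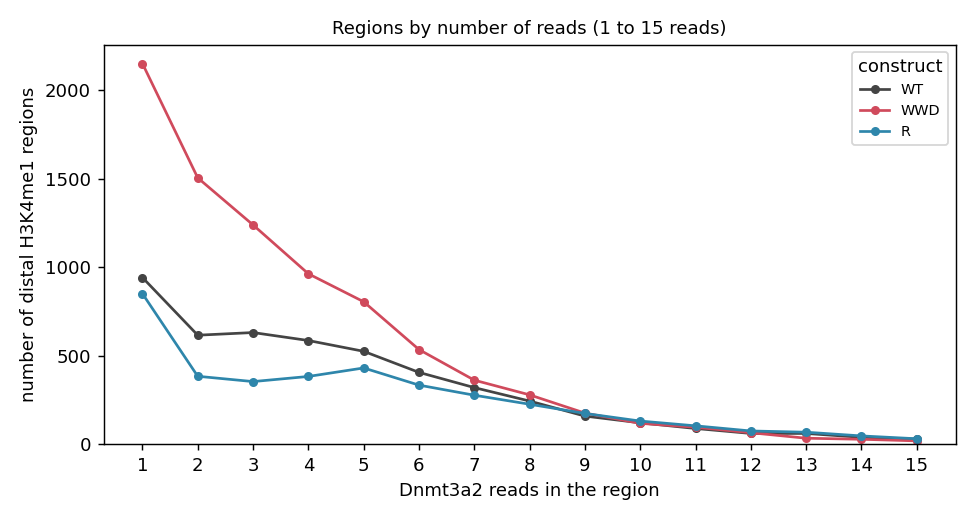
Number of distal H3K4me1 regions (vertical axis) by the number of Dnmt3a2 reads in the region (horizontal axis, 1 to 15 reads, not scaled for depth), with 1 line per construct. The WWD line starts at 2151 regions with 1 read and falls throughout this range, whereas the R line dips to 354 regions at 3 reads and is back at 431 at 5 reads.

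Clustered and solitary regions had similar shares with a read. In WT a read was present at 24.4% of clustered regions (22.8 to 25.9) and 23.1% of solitary ones (22.5 to 23.7). In WWD the order was the reverse, with 38.8% of clustered (37.0 to 40.6) and 40.3% of solitary regions (39.5 to 40.98). In R the shares were 19.1% (17.7 to 20.5) and 18.8% (18.2 to 19.4). In all 3 constructs the intervals of the 2 groups overlapped. Within chromosomes, clustered regions had the higher share on 13 of 20 chromosomes in WT, on 9 in WWD and on 9 in R. The difference in share, clustered minus solitary, averaged 2.24 percentage points in WT (SD 4.65), -1.40 in WWD (SD 3.62) and 0.478 in R (SD 3.03, n = 20 chromosomes each), so the chromosomes varied in its sign and size.

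Mean signal at clustered regions was 0.463 for WT, 0.841 for WWD and 0.415 for R, in reads per region per 10000000. Mean signal at solitary regions was 0.492, 0.872 and 0.428 in the same order, which gave clustered to solitary ratios of 0.941 for WT, 0.964 for WWD and 0.969 for R. A few solitary regions with very many reads, described below, entered these means. With reads counted up to 20 per region the ratios were 1.02 for WT, 0.969 for WWD and 1.07 for R, so the direction in WT and R turned. Leaving out only the region with most reads, on chromosome 9, gave 0.999 in WT and 1.03 in R. The ratio of WWD to WT was 1.82 at clustered regions (95% counting interval 1.73 to 1.90) and 1.77 at solitary regions (1.74 to 1.80). These counting intervals treat reads as independent, although reads came in clumps as described above, so they are too narrow. The ratio of R to WT was 0.897 (0.853 to 0.942) at clustered and 0.871 (0.854 to 0.888) at solitary regions.

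**Figure D2:**
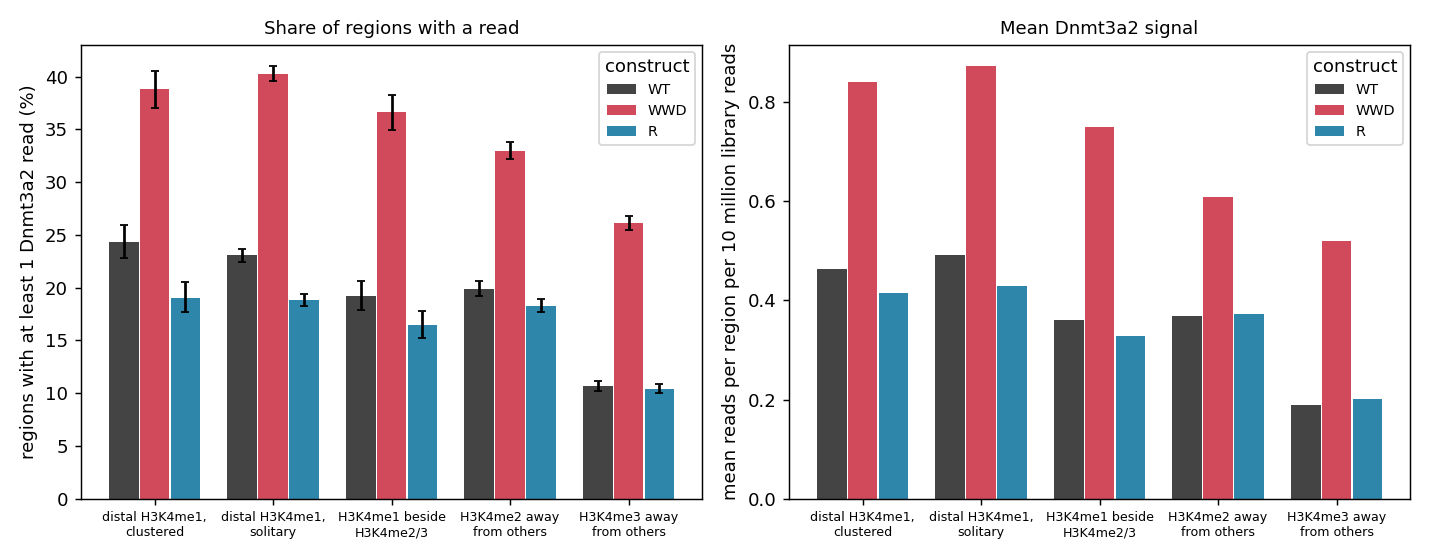
Left, percent of regions with at least 1 Dnmt3a2 read, with 95% exact Clopper-Pearson intervals. Right, mean reads per region per 10000000 library reads, without error bars; each group of bars is a set of regions and each colour a construct. WWD is the tallest bar in every set, and clustered and solitary distal H3K4me1 regions stand at nearly the same height, from 38.8% to 40.3% in WWD.

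Neighbouring regions seldom carried reads together. Of 1423 pairs of neighbouring distal regions within 1000 bp, both had a WT read in 79 pairs, a WWD read in 219 and an R read in 71. Given a read at one region of a pair, the partner had one in 23.4% of cases in WT, against 24.4% of all clustered regions. In WWD the values were 39.6% and 38.8%. In R the partner had a read in 26.3% of cases, against 19.1% of clustered regions. This excess in R did not follow the distance: partners had a read in 15.4% of cases at up to 300 bp, 29.7% above that and up to 500 bp, 23.0% in the next class and 31.8% in the class closest to 1000 bp. The closest class held 220 pairs, of which 6 had R reads at both regions.

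Runs of 4 rows numbered 11 and held 35 distal regions, of which 7 had a WT read, 16 a WWD read and 6 an R read. Coordinates are given in mm9. The first such run with 4 distal regions, on chromosome 1 from 14621397 to 14622980, held 3 reads in all, which were WWD reads at its first region. A run on chromosome 3, from 145654281 to 145655646, held 7 and 5 R reads at its first and second regions, 2 WWD reads at the third and 6 WT reads at the fourth. Each construct thus had its reads at different regions of the run. On chromosome 5, from 116502665 to 116504366, the second region held 5 WT and 7 R reads, the first region held 1 WWD and 1 R read, and the fourth held 1 WWD read, which could be 0 by the rounding of the deposited values. These runs were taken by number of rows and then by coordinate, not by their reads.

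Distal regions had more Dnmt3a2 signal than H3K4me1 rows beside an H3K4me2 or H3K4me3 row, in each construct. A read was present at 19.2% of the adjoining rows in WT (17.9 to 20.6), 36.6% in WWD (34.96 to 38.3) and 16.5% in R (15.2 to 17.8), all below the shares at distal regions given above. The mean at distal regions was 1.35 times that at adjoining rows in WT, 1.16 times in WWD and 1.30 times in R. Without the 10 distal regions with most reads these values were 1.25, 1.15 and 1.18. The share with a read was higher at distal than at adjoining rows on 19 of 20 chromosomes in WT, on 17 in WWD and on 17 in R. The difference, distal minus adjoining, averaged 4.22 percentage points in WT (SD 3.29), 4.11 in WWD (SD 4.47) and 2.18 in R (SD 2.15, n = 20 chromosomes each). The ratio of WWD to WT was 1.78 at distal regions (counting interval 1.75 to 1.81) and 2.08 at adjoining rows (1.98 to 2.18). WWD thus exceeded WT by less at distal regions than at adjoining rows, although no test of this difference was possible. With at most 20 reads per region the 2 ratios came closer, at 1.90 and 2.08.

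Rows of the other tables that lay away from all others gave lower values, although in R the H3K4me2 rows came close. The tables had been scaled separately, and these comparisons use recovered reads over library totals. The 13235 H3K4me2 rows more than 500 bp from the other tables had a read in 19.9% of cases for WT, 33.0% for WWD and 18.3% for R. Distal H3K4me1 regions were 1.32-fold above them by mean signal for WT, 1.42-fold for WWD and 1.15-fold for R. The corresponding 16609 H3K4me3 rows had a read in 10.7%, 26.2% and 10.4% of cases. Distal H3K4me1 regions were 2.57-fold above those in WT, 1.67-fold in WWD and 2.13-fold in R. With at most 20 reads per region these ratios were 2.39, 1.67 and 1.96. The ratio was thus smallest in WWD, although its shares, 40.1% and 26.2%, were not the closest in percentage points. By mean signal WWD was 1.65 times WT at these H3K4me2 rows and 2.74 times WT at these H3K4me3 rows. The 1.78 of distal regions lay between them. R was 0.874 times WT at distal regions and 0.909 times at adjoining rows, but 1.01 times at these H3K4me2 rows and 1.06 times at these H3K4me3 rows.

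Signal did not change evenly with distance from H3K4me2 or H3K4me3 rows. In WT, a read was present at 21.0% of distal regions over 500 to 1000 bp away (19.4 to 22.7), 23.8% at over 1000 to 2000 bp (22.1 to 25.4) and 24.5% at over 5000 to 20000 bp (23.5 to 25.5). Beyond 100000 bp the share was 18.5% (16.2 to 21.0). In WWD the same 4 shares were 37.1%, 41.2%, 41.2% and 38.8%. In R they were 18.5%, 20.6%, 19.2% and 15.1%. In the class over 20000 to 100000 bp the shares were 22.5%, 39.0% and 18.2% for WT, WWD and R. Only in WT were the intervals of the nearest and the farthest class both separate from that of the class over 5000 to 20000 bp. In WWD only the nearest class was separate from it (35.1 to 39.1 against 40.1 to 42.4), and in R only the farthest (13.0 to 17.4 against 18.3 to 20.2). Whether the nearest row was of the H3K4me2 or the H3K4me3 table made little difference, with 23.2% and 23.3% in WT, 39.8% and 40.4% in WWD, and 19.04% and 18.53% in R.

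Isolated regions stood apart in a different way. For the 1495 distal regions over 100 kb from any other H3K4me1 row, fewer had a read but the mean was higher in WT and R. A read was present at 18.5% of them in WT (16.6 to 20.6) against 23.6% of the other distal regions (23.0 to 24.2). The pairs of shares were 36.1% and 40.4% in WWD, and 14.9% and 19.1% in R. The mean was 0.845 against 0.461 reads per 10000000 in WT, 0.784 against 0.399 in R, and 0.878 against 0.867 in WWD. Without the single region with most reads, on chromosome 9, the isolated mean was 0.498 for WT, 0.858 for WWD and 0.472 for R. Leaving out the 10 distal regions with most reads, 9 of which were isolated, brought it to 0.337 for WT, 0.781 for WWD and 0.287 for R, below the means of the less isolated regions. A handful of regions thus set the high isolated mean in WT and R.

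**Figure D3:**
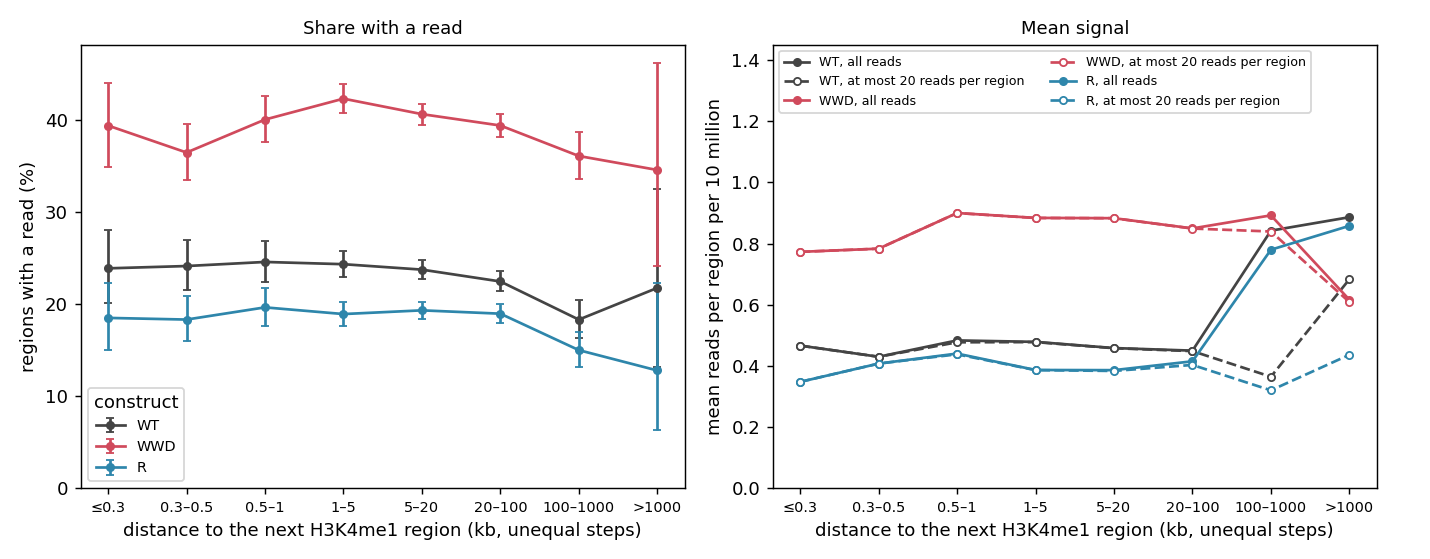
Left, percent of distal H3K4me1 regions with a read, with 95% exact Clopper-Pearson intervals; right, mean reads per region per 10000000, with all reads (solid lines) and with at most 20 reads per region (dashed). The horizontal axis is the distance to the next H3K4me1 row in 8 unequal steps, the last of which holds 78 regions. Up to 100 kb the WT shares lie between 22.5% and 24.6% and the R shares between 18.4% and 19.7%. The WWD share is 36.5% (33.5 to 39.6) at over 300 to 500 bp and 42.4% (40.8 to 44.0) at over 1000 to 5000 bp. The means at up to 300 bp and at over 500 to 1000 bp are 0.773 and 0.900 in WWD, and 0.348 and 0.441 in R. From 100 kb to 1000 kb the solid WT and R lines rise to 0.842 and 0.780, near the 0.892 of WWD, while the shares are lower.

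Few regions held many reads. At least 8 reads per 10000000, a level chosen after seeing the data, was reached at 29 distal regions for WT, 98 for WWD and 29 for R. At least 20 per 10000000 was reached at 5, 3 and 8 regions in the same order. The most regions at the first level were thus in WWD, and the fewest at the second. The regions at the first level held 9.33% of the WT reads at distal regions, 5.51% of the WWD reads and 11.2% of the R reads. Of them, 10 of 29 for WT, 18 of 98 for WWD and 9 of 29 for R were over 100 kb from another H3K4me1 row, compared with 7.11% of all distal regions. At lower levels the isolated shares for WT, WWD and R were near or below that value. They were 5.53%, 6.20% and 5.46% at 2 per 10000000 or more, and 5.84%, 6.84% and 7.21% at 4 or more. At 20 or more they were 100%, 100% and 87.5%. At the first level, chromosome X held 6 of the 29 for WT, 2 of the 98 for WWD and 5 of the 29 for R, compared with 0.903% of all distal regions. In 9 regions both WT and R had at least 20 reads, and in 8 of these WWD had fewer reads per 10000000 than either. These 9 were picked by high WT and R reads and not by WWD reads, which favours a lower WWD value.

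The region with most reads was at chromosome 9, 3015676 to 3015775 (mm9), the first H3K4me1 row on that chromosome. It held 1246 WT reads, 52 WWD reads and 1180 R reads. Values are deposited with 2 decimals, so the WT number could lie anywhere from 1241 to 1250. WWD was 17.2-fold below WT and 15.5-fold below R there. The next was at chromosome X, 73844337 to 73844436, with 207 WT reads, 71 WWD reads and 180 R reads. Chromosome 19, 61300306 to 61300405, the last H3K4me1 row of its chromosome, held 135 WT reads, 28 WWD reads and 186 R reads, and lay 812 bp from an H3K4me3 row. Chromosome X, 121268423 to 121268522, held 34 WT reads, 2 WWD reads and 150 R reads. Chromosome 4, 28104072 to 28104171, held 55 WT reads, 21 WWD reads and 69 R reads. These 5 were the distal regions with the highest mean over the constructs, and WWD had the fewest reads in each. Their means came mostly from WT or R reads, so this choice too favours a lower WWD value. The order was different at the sixth, chromosome 12, 68160500 to 68160599, with 18 WT reads, 50 WWD reads and 42 R reads. Chromosome 17, 36621706 to 36621805, was among the 4 regions with the largest excess of WT over WWD and held 57 WT reads, 62 R reads and 1 WWD read.

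**Figure D4:**
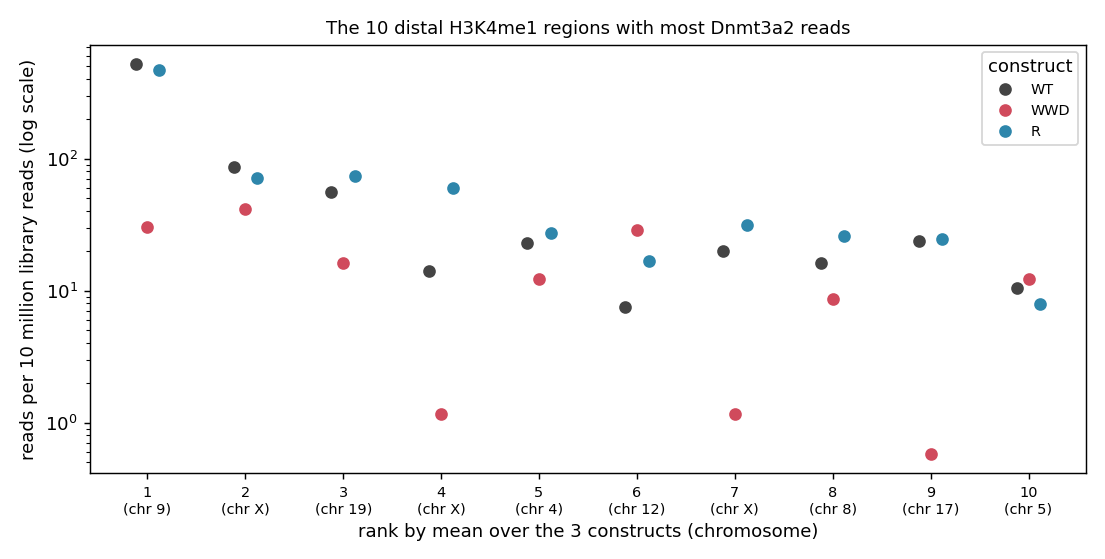
Reads per 10000000 library reads (vertical log axis) at the 10 distal H3K4me1 regions with the highest mean over the 3 constructs, ordered by that mean, with 1 point per construct. WT and R lie near each other at most regions. WWD is the lowest point at 8 of the 10, the exceptions being the regions on chromosomes 12 and 5. The regions were chosen by these same values.

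Single regions were compared by a fixed size of difference. A region counted as higher in a construct when it held at least 5 reads there and at least 2-fold more reads per 10000000 than in the other, with a number below 3 in the other construct set to 3. WWD was higher than WT by this rule at 2301 distal regions, or 10.9% (10.5 to 11.4), against 10.8% of all 24302 H3K4me1 rows. WT was higher than WWD at 519, or 2.47%, against 2.40% of all rows. R was higher than WT at 1062, or 5.05%, against 5.0%, and WT was higher than R at 1406, or 6.68%, against 6.50%. WWD was higher than R at 2330, or 11.1%, against 10.8%, and R was higher than WWD at 597, or 2.84%, against 2.82%. All 6 shares were near the background of the table, of which distal regions are the greater part. The limits in reads were not equal for libraries of unequal depth: against 0 reads in WT a region needed 5 WWD reads, and against 0 reads in WWD it needed 9 WT reads. The numbers moved accordingly with the limits. With a floor of 1 read, 2301 regions were higher in WWD than in WT and 1615 in WT than in WWD, and with at least 10 reads they were 385 and 387. For these changed limits no share of all rows was computed. With equal limits per 10000000, added after seeing the data (at least 4 in the higher construct and a floor of 2 in the lower), 1126 distal regions were higher in WWD than in WT (5.35%, against 5.27% of all rows) and 387 in WT than in WWD (1.84%, against 1.80%). On these limits 372 were higher in R than in WT (1.77%, against 1.75%) and 415 in WT than in R (1.97%, against 1.91%). The numbers for WWD and R were 1138 higher in WWD (5.41%, against 5.28%) and 353 higher in R (1.68%, against 1.70%). WWD thus had the more regions in both of its comparisons on equal limits, and with a minimum of 10 reads it did not. That minimum was a higher level per 10000000 in WWD than in WT or R, because a WWD read stood for more. The other construct had 0 reads at 83.4% of the regions higher in WWD than in WT and at 62.6% of those higher in WT than in WWD. Clustered and solitary regions were close here too, with 10.6% and 10.99% higher in WWD than in WT, and 5.51% and 4.97% higher in R than in WT.

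Among the regions higher in WWD than in WT, the largest difference was at the chromosome 12 region given above. Chromosome 11, 84955290 to 84955389, followed with 27 reads in WWD, 0 in WT and 1 in R, at least 12.5-fold higher than WT when WT is set to 3 reads. Chromosome 7, 20500085 to 20500184, held 22 reads in WWD, 0 in WT and 4 in R, at least 10.2-fold higher than WT. Also on chromosome 7, the region from 25768985 to 25769084 held 24 reads in WWD, 5 in WT and 0 in R. WWD was 6.68-fold above WT at this region. Both chromosome 7 regions were solitary, with the next H3K4me1 row 3620 bp and 38456 bp away. In the other direction the largest differences were at the regions of chromosomes 9, X, 19 and 17 already described.

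Regions higher in R than in WT were led by the chromosome X region with 150 R reads. The next were chromosome X, 166442490 to 166442589, with 48 reads in R, 11 in WT and 2 in WWD, and chromosome 3, 4743727 to 4743826, with 44, 11 and 1. Chromosome 16, 98244261 to 98244360, held 44 reads in R, 11 in WT and 6 in WWD. R was between 3.80-fold and 4.20-fold above WT at these 4 regions. Of these, the second chromosome X region was the last of 215 H3K4me1 rows on its chromosome, the chromosome 16 region the last of 888, and the chromosome 3 region row 3 of 1120. Regions higher in WT than in R were led by chromosome 4, 134375453 to 134375552, with 26 WT reads and 0 reads from WWD or R, at least 9.11-fold higher than R and at least 6.23-fold higher than WWD. Chromosome 10, 98302702 to 98302801, held 25 WT reads, 4 WWD reads and 0 R reads, and chromosome 11, 79795727 to 79795826, held 25, 3 and 0. The fourth was a clustered region, chromosome X, 53260795 to 53260894, with 32 WT reads, 1 WWD read and 9 R reads, and another H3K4me1 row 881 bp away. All of these were chosen for their size among 21036 regions, and their values are a description only.

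Few distal regions had reads in every construct. The counts in this paragraph were not taken over all H3K4me1 rows, so whether they are particular to distal regions was not tested. No read in any construct was found at 8058 regions (38.3%), and reads in exactly 1 construct at 9128 (43.4%), of which 5140 had them in WWD alone, 2278 in WT alone and 1710 in R alone. Reads in all 3 were present at 450 regions (2.14%), at similar rates among clustered (2.30%) and solitary regions (2.11%). Regions with a read in one construct had a read in another only slightly more often than all distal regions did. This concerns the presence of a read and not read numbers. Of the 29 regions with at least 20 WT reads and the 33 with at least 20 R reads, 9 were the same. Of the regions with a WT read, 41.9% also had a WWD read (40.5 to 43.3), against 40.1% of all distal regions. Of those with an R read, 25.6% had a WT read (24.2 to 26.99), against 23.3% of all, and 42.6% had a WWD read (41.0 to 44.1), against 40.1%. At least 5 reads in each construct were present at 43 regions, of which 9 were clustered and 2 were on chromosome X. The 6 with the highest lowest value were the regions on chromosomes 9, X (73844337), 19 and 4 given above, together with chromosome 8, 19930169 to 19930268, and chromosome 5, 80242597 to 80242696. The chromosome 8 region held 39 WT reads, 15 WWD reads and 65 R reads. The chromosome 5 region held 25, 21 and 20, the most even of the 6, and lay 2331914 bp from the next H3K4me1 row.

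Across chromosomes the share of distal regions with a read was lowest on X and highest on 8 in each construct. On chromosome X, 190 distal regions had a read in 16.8% of cases in WT (11.8 to 22.9), 22.6% in WWD (16.9 to 29.2) and 12.1% in R (7.83 to 17.6). On the autosomes the shares were 23.3%, 40.2% and 18.9%. On chromosome 8, 1148 distal regions had a read in 27.7% of cases in WT (25.1 to 30.4), 49.3% in WWD (46.4 to 52.2) and 23.3% in R (20.9 to 25.9). On the autosomes other than 8 these were 23.1%, 39.7% and 18.6%. The mean on chromosome X was nevertheless high in WT, at 1.09 reads per 10000000, and in R, at 1.20, and was 0.729 in WWD. Without the 5 highest regions of the chromosome it was 0.378, 0.212 and 0.460 in WT, R and WWD.

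The ratio of WWD to WT was below 1 on chromosomes X and 9, at 0.669 and 0.970, and between 1.36 and 2.40 on the other chromosomes. With at most 20 reads per region it was above 1 on all 20 chromosomes, at 1.08 on X and 1.90 on 9. R had fewer regions with a read than WT on each of the 20 chromosomes, with ratios of the shares from 0.68 on chromosome 4 to 0.878 on chromosome 12. By mean signal R was above WT on chromosomes X and 16. The share of distal regions that were clustered varied little, from 11.7% on chromosome 10 to 15.9% on chromosome 16.

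**Figure D5:**
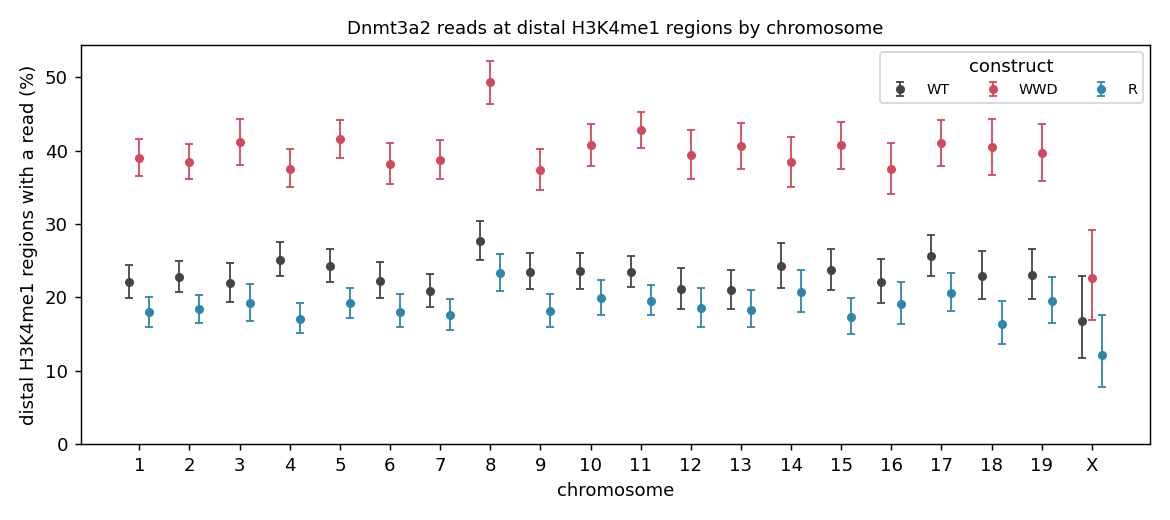
Percent of distal H3K4me1 regions with at least 1 Dnmt3a2 read (vertical axis) on each chromosome (horizontal axis), with 95% exact Clopper-Pearson intervals and 1 colour per construct. WWD is highest and R lowest on every chromosome, chromosome 8 is raised in each construct (49.3% in WWD) and chromosome X is lowest (22.6% in WWD).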

How the data were processed

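The deposited tables hold log2 values, which the authors scaled by a factor for each library, with total reads and an effective total given per the file headers. Alignment was to mm9 with Bowtie, per the submitters' processing notes; the sources used here do not state how regions were called. The values had the form of log2 of 1 plus the factor times the reads plus a random amount below 1 read, as read from the values. Whole reads were recovered by inverting this form. The inversion was tested on data simulated with the same form, which cannot show that the deposited values have it. Signal is reads per region per 10000000 total reads. Of the value columns, 5 were not used, of which 2 belong to no listed sample. Another 16 rows on other sequences were left out. Distances run from the end of one row to the start of the next. Only the number of distal regions was checked with bedtools 2.31.1, which also gave 21036. Shares have exact Clopper-Pearson intervals (95%), and intervals of ratios are exact binomial intervals given the sum of reads. Named regions were the 5 with the highest mean, 4 each way for WWD and R against WT by difference in signal, 6 with the highest lowest value among those with at least 5 reads in each construct, and the 3 runs with most distal rows. Members, rules and alternatives were chosen with earlier results of these data known. Replicates left out were not run, because each construct had 1 column. Python 3.11.15, numpy 2.4.6, pandas 2.3.3, scipy 1.17.1 and matplotlib 3.10.9 were used. Separate samples per construct may be pooled in a column, and no spread between cultures was measured.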

Additional observations from a re-analysis of the deposited data

How the results depend on the processing

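The 18 results were recomputed to give 180 alternative values. A ratio or share inside the main interval, or a count less than 1.5 times apart, was found in 105 cases. Across all alternatives, 5 ratios lay on the other side of 1 from the main value, all of them clustered over solitary (2 in WT and 3 in R, where the main interval of R holds 1). Ratio intervals treat reads as independent and are narrow. No paired analysis was possible because each construct had 1 column, and for the same reason leaving out replicates was not run. Scaling by the effective total changed no ratio by construction. Leaving out the 1 or the 10 regions with most reads and the equal limits per 10000000 were chosen after seeing the data. The cause of the changes was not tested, except that a stricter rule keeps fewer regions.

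With at most 20 reads per region, clustered over solitary was 1.02 in WT and 1.07 in R (both turned), distal over adjoining was 1.26 in WT and 1.19 in R, WWD over WT was 1.90 and WWD over R 2.22. Without the region with most reads these 6 values were 0.999, 1.03 (turned), 1.28, 1.23, 1.87 and 2.14. Without the 10 with most reads they were 1.03 and 1.08 (both turned), 1.25, 1.18, 1.91 and 2.22. With reads required in at least 2 constructs, WWD over WT was 1.23, WWD over R 1.35, R over WT 0.913, clustered over solitary 0.843 in WT and 0.874 in R, and distal over adjoining 1.06 in WWD and 1.13 in R. With deposited values in place of whole reads, WWD over WT was 1.66, WWD over R 1.86, R over WT 0.894, and distal over adjoining 1.22 in WT, 1.11 in WWD and 1.19 in R. On autosomes only, WWD over R was 2.07. With neighbours within 500 bp, clustered over solitary was 0.899 for WT, 0.892 for WWD and 0.906 for R, and within 2000 bp it was 0.999 in WWD and 0.923 in R. At over 1000 bp from the other tables, distal over adjoining was 1.24 in WT and 1.19 in R. At over 5000 bp it was 1.15 for WT, 1.05 for WWD and 1.16 for R, WWD over WT was 1.74, WWD over R 1.97 and clustered over solitary 0.873 in WT. Regions then numbered 1386 higher in WWD than WT, 293 in WT than WWD, 640 in R than WT, 827 in WT than R, 1394 in WWD than R and 368 in R than WWD. In the same order, a 4-fold rule gave 501, 35, 188, 203, 510 and 46. A minimum of 10 reads gave 385, 387, 491, 415, 388 and 459. On this limit the excess of WWD over WT was gone, and the order of WWD and R and that of R and WT turned. The limit is stricter per 10000000 for WWD, where a read stood for 0.579, than for WT (0.416) or R (0.396). A floor of 1 read gave 2301, 1615, 1695, 1850, 2330 and 1510. Equal limits per 10000000 gave 1126, 387, 372, 415, 1138 and 353. Only for the main rule and these equal limits were counts over all H3K4me1 rows taken. Shares at 2 or more reads were 18.8% for WT, 29.8% for WWD and 14.8% for R, and at 5 or more 10.1%, 12.2% and 9.46%. Rounding to 2 decimals left 308 regions in WT, 129 in WWD and 412 in R at 0 or 1 read, so the share with a read could be up to 24.7% in WT and 20.8% in R and as low as 39.4% in WWD. Dnmt3a2 reads at single regions were few, which limits what any one of them shows.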
